A study of Mus musculus with 12 samples.

Results

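The T cell receptor signalling genes described here are 38 genes that carry a signal from the receptor at the T cell surface to the nucleus, or that damp it. They were taken by symbol from the 49671 genes in the count files, and all 38 were found and passed the filter on low counts. By role they comprise a class of 5 with 4 receptor chains and the CD4 coreceptor, 6 kinases, 7 adaptors, 5 enzymes and exchange factors, the BCL10-MALT1 pair (2 genes), 3 NFAT transcription factors and 10 negative regulators. RNA came from regulatory T cells (Tregs) of C57BL/6 mice aged 8 weeks, either wild type (WT) or with a mutation of Gclc, the gene of the catalytic subunit of the enzyme that starts glutathione synthesis. Natural Tregs (nTregs) were sorted fresh from the mice, and induced Tregs (iTregs) were made in culture from naive CD4+ T cells. Each of the 4 groups (WT nTregs, mutant nTregs, WT iTregs and mutant iTregs) had 3 libraries, 12 in all, numbered 1, 2 and 3 in WT and 1, 2 and 4 in the mutant. The labels used here do not name the allele, a Cre driver or a treatment, nor do they tell whether replicate libraries stem from different mice or culture wells. The p-values therefore rest on the spread among these libraries, part of which may be technical. The question the groups pose for these genes is whether receptor chains and kinases move with the Gclc mutation, or between the kinds of Treg, in the same way as the negative regulators.

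In a T cell, peptide recognition by the receptor lets the kinase LCK phosphorylate the CD3 and zeta chains, which recruit ZAP70. ZAP70 then phosphorylates the adaptors LAT and SLP-76 (gene Lcp2), on which PLC-gamma1 and the exchange factors VAV1 and SOS1 assemble. Diacylglycerol and calcium carry the signal on, through RASGRP1 to RAS, through PKC-theta (Prkcq) and BCL10-MALT1 to NF-kB, and through calcineurin to NFAT. Phosphatases, ubiquitin ligases of the CBL family, diacylglycerol kinases and the surface receptors CD5 and CD6 limit the signal. Tregs depend on signalling through this receptor both to form and to suppress.

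Levels are in counts-per-million (CPM) units, on library sizes scaled by TMM. Gclc itself, as the check of the labels, was read at 78.7, 79 and 70.8 CPM in the WT nTregs against 45.8, 41.7 and 43.2 in the mutant. In iTregs Gclc was at 56.5, 53.2 and 51.9 CPM in WT against 18.8, 21 and 19 in the mutant. Foxp3, the transcription factor that defines Tregs, was also lower in both mutant groups, with a mean of 578 CPM in WT and 178 in mutant nTregs and of 293 and 92.9 in iTregs. Of 7 Treg markers that include Foxp3, 1 was called lower and 0 higher in mutant nTregs. In mutant iTregs 3 of the 7 were lower and 1 was higher. The 7 summed to 2790 to 3040 CPM in WT and 1940 to 2500 in mutant nTregs. In iTregs they summed to 2040 to 2180 CPM in WT and 2080 to 2240 in the mutant. Total counts per library lay between 28707579 and 39886130. Mutant nTreg library 1 stood apart: the summed level of 10 CD8 and NK cell markers was 1560 CPM there and 165 and 187 in the other mutant nTreg libraries, against 57.7 to 65 in WT nTregs and 37.8 to 89.1 in all iTregs. Cd8a was at 219, 19.1 and 27.2 CPM in mutant nTreg libraries 1, 2 and 4 and at 3.7, 4.38 and 6.36 in WT. The nTregs also held more RNA of B cell markers (253 to 512 CPM summed over 9 genes), myeloid markers (101 to 152 over 11) and erythroid markers (111 to 883 over 6), where the iTregs had 5.18 to 8.62, 7.19 to 11.9 and at most 0.108. In such bulk samples, fewer cells of a type and less RNA per cell cannot be told apart.

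Promoter sequence was looked at because 5 members (Cd247, Dgka, Rasgrp1, Rasgrp2 and Sh2d2a) were lower in the mutant in both kinds of Treg. RefSeq windows (GRCm38.p6) of 300 bases, from 250 before to 50 after the transcription start, matched 33 of the 38 members by symbol. Cd4, Cd6, Malt1, Nfatc1 and Sh2d2a had none. The ETS-family word AGGAAGT, searched on both strands, stood in 11 of the 33 windows (33.33%) and in 9.35% of all 32851 windows. For each member only the window nearest to the 5′ end of its gene model was kept. The full set had no such choice and no filter on expression, so the shares are of unlike sets. A second ETS word, CCGGAAG, shares GGAAG with it but differs in the base before, so that 1 site cannot match both; it was in 1 member window (Bcl10) and 8.86% of all. The RUNX word TGTGGT was in 3 (Lat, Lck and Sos1; 16.76% of all) and the FOXO word GTAAACA in 3 (Grap2, Nfatc2 and Nfatc3; 3.65% of all). AGGAAGT was in 5 of 15 windows of members that were lower in mutant nTregs (Cd247, Cd3e, Cd5, Dgkz and Ptpn6) and in 6 of the windows of the 18 others. Of these 5, the last 4 are shown as 60-base stretches around the match, 5′ to 3′ on the strand of the gene, with the match in capitals (ACTTCCT is AGGAAGT read on the other strand), so that the shared letters can be seen in a CD3 chain and 3 negative regulators. The match began 18 bases before the start in Cd3e, 52 in Cd5, 76 in Dgkz and 190 in Ptpn6. For Dgkz this RefSeq start lies inside the gene model of the count files, far from the model's 5′ end at 91975864.
Cd3e, chr9:45009596-45009655, minus strand: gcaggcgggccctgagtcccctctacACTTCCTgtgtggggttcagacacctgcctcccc
Cd5, chr19:10738993-10739052, minus strand: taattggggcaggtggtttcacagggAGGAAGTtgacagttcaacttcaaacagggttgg
Dgkz, chr2:91963606-91963665, minus strand: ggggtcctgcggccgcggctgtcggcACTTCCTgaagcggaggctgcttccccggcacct
Ptpn6, chr6:124738866-124738925, minus strand: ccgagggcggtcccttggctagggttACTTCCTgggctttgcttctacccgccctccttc

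Whole windows are shown for 3 of the members that were lower in both kinds of mutant Treg. Cd247 held the ETS word at 2 places, in capitals, which began 58 bases before and 21 bases after its start. Dgka and Rasgrp2 held none of the 4 words, nor did Rasgrp1, whose window is not shown. The RefSeq start of Rasgrp2 lies 535 bases from the 5′ end of the gene model in the count files. A match is a run of letters and not a measured binding site, and a window without one says only that these letters are not there.
Cd247, chr1:165788431-165788730, plus strand: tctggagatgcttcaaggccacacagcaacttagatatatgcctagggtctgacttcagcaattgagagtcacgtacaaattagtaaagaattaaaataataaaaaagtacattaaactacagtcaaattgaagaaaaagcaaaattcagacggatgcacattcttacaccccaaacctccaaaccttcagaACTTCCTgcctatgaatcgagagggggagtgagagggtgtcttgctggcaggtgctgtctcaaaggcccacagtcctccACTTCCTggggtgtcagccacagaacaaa
Dgka, chr10:128744027-128744326, minus strand: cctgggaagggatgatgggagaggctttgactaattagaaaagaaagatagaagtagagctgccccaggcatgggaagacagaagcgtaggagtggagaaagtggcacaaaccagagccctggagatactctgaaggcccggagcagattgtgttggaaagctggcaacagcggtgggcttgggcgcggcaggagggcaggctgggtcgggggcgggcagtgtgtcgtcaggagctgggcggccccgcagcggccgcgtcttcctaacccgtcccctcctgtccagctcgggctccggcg
Rasgrp2, chr19:6399625-6399924, plus strand: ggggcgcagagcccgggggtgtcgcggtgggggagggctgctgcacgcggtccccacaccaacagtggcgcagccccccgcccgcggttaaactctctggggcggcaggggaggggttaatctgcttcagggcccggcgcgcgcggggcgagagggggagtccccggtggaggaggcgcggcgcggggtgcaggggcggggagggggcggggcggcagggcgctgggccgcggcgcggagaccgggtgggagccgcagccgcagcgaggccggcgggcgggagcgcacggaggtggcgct

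In nTregs, more members were lower than higher in the mutant, and the negative regulators, the largest class, had the most members lower. Of the 38 members, 16 fell and 2 rose (edgeR quasi-likelihood test, adjusted p under 0.05 over all 17977 tested genes), while 15.6% of all tested genes were called lower and 19.3% higher. The members' median log2 fold change was -0.21, beside 0.04 for all tested genes, and 30 of the 38 values were below zero. By class, 7 of 10 negative regulators fell and none rose (median log2 -0.37). Of the 5 enzymes and exchange factors, 3 fell and none rose (median -0.38). Among the 11 receptor chains, coreceptor and kinases, 3 fell (Cd3e, Cd247 and Prkcq) and 1 rose (Zap70). The groups did not overlap for 26 of the 38 members (68.4%) and for 48.2% of all tested genes. Other T cell genes outside the members (Trac, Trbc2, Cd2 and Cd28) summed to 1910 to 2110 CPM in WT and 1640 to 1750 in mutant nTregs, with 3 of the 4 called lower, while 9 of 10 CD8 and NK cell markers were called higher. Their part in the members' values was not tested.

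**Figure D1:**
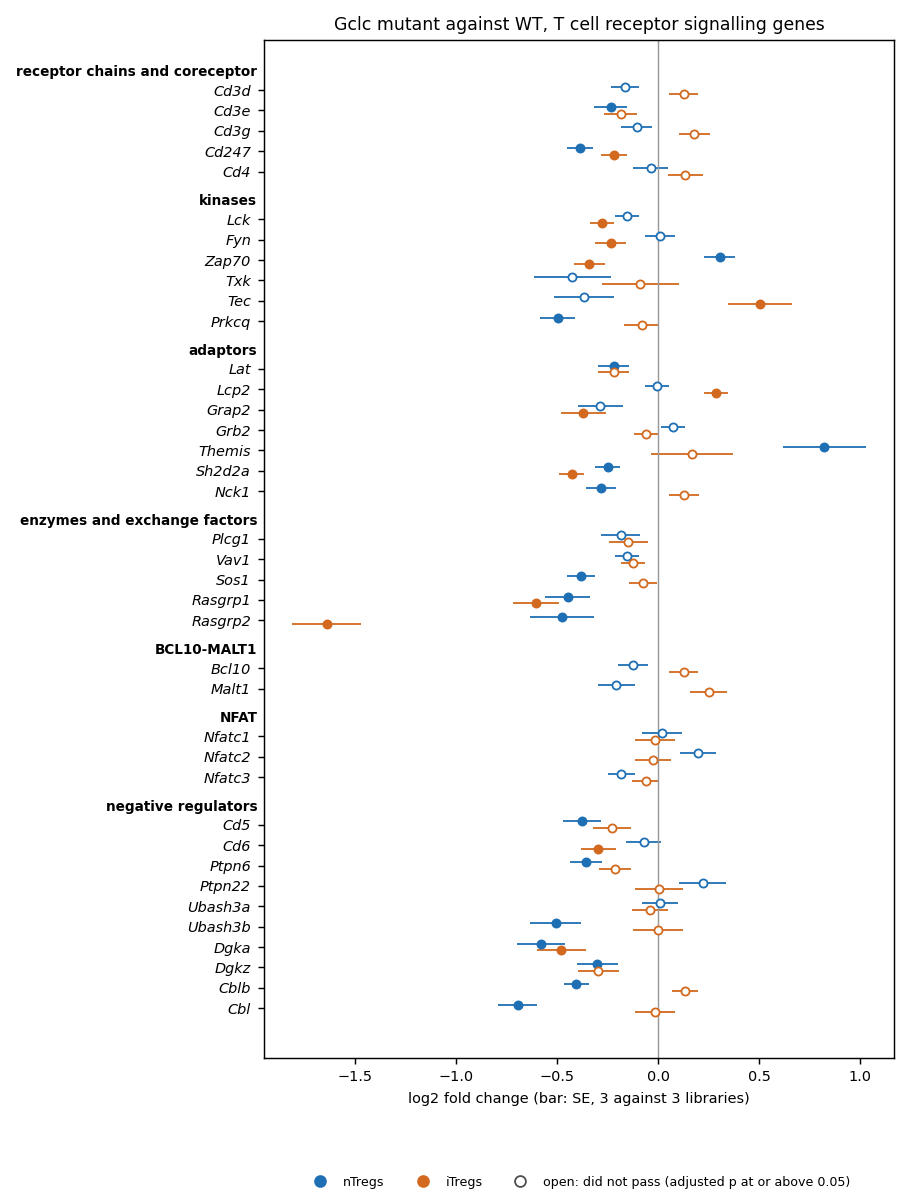
Log2 fold change of mutant against WT for each member, in nTregs (blue) and iTregs (orange), grouped by role. Points are edgeR estimates from 3 libraries against 3, and filled points passed at an adjusted p under 0.05. Bars are the SE, with the spread of each gene estimated over all 12 libraries. In nTregs 7 of the 10 negative regulators were called lower, and Rasgrp2 in iTregs lay farthest from zero at -1.64.

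Among receptor chains, Cd247 (ENSMUSG00000005763) encodes the zeta chain, which carries phosphorylation motifs of the receptor (GRCm38 chromosome 1, 165788681 to 165877277, plus strand). It was at 218, 216 and 222 CPM in WT nTregs and 174, 153 and 175 in mutant nTregs, and every mutant library lay below every WT library. The fall was 1.31-fold (log2 -0.39 ± 0.06 SE, n = 3 against 3, adjusted p = 0.00107). Every SE given here uses a spread estimated over all 12 libraries, also those of groups not compared. Cd3e, a CD3 chain needed to assemble the receptor, also fell (mean 310 to 263 CPM, log2 -0.23 ± 0.08, adjusted p = 0.0418). Cd3d and Cd3g, the other CD3 chains, were -0.17 and -0.10 on the log2 scale and did not pass (adjusted p = 0.0851 and 0.315). Cd4, the coreceptor, was at 514, 492 and 472 CPM in WT and 415, 505 and 520 in the mutant, and the low value was library 1, the one with high Cd8a. Cd3d, Cd3e and Cd3g are neighbours on chromosome 9 (44969572 to 45009627 from end to end).

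Among kinases, Prkcq fell and Zap70 rose. Prkcq encodes PKC-theta, the diacylglycerol-dependent kinase that leads to NF-kB (ENSMUSG00000026778, chromosome 2, 11172108 to 11301222, plus strand). Its levels were 313, 288 and 304 CPM in WT and 212, 201 and 229 in mutant nTregs, a clear gap between the groups. That is a 1.41-fold fall (log2 -0.50 ± 0.09, adjusted p = 0.00134). Zap70 (ENSMUSG00000026117, chromosome 1, 36761798 to 36782818, plus strand), the kinase recruited to the phosphorylated chains, was at 83.8, 77.7 and 93.4 CPM in WT and 99.1, 109 and 106 in the mutant. All mutant libraries were above all WT ones, by 1.24-fold (log2 0.31 ± 0.08, adjusted p = 0.00883). The SRC-family kinases Lck (log2 -0.15, adjusted p = 0.0607) and Fyn (0.01, adjusted p = 0.947) and the TEC-family kinases Txk (-0.42, adjusted p = 0.0989) and Tec (-0.37, adjusted p = 0.0734) did not pass.

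Of the 7 adaptors, 3 fell and 1 rose in mutant nTregs. Themis, an adaptor best known from thymocyte selection (ENSMUSG00000049109, chromosome 10, 28668360 to 28883818, plus strand), had the largest rise of any member. Its WT levels were 67.6, 68.9 and 65.2 CPM and its mutant levels 178, 87 and 91.6, with library 1 far above the other mutant libraries, which were in turn above all WT libraries. The change was 1.77-fold (log2 0.82 ± 0.20, adjusted p = 0.00882), and without library 1 it was 0.44 (adjusted p = 0.000262). Sh2d2a, which encodes the LCK-binding adaptor TSAd, was at 219, 204 and 201 CPM against 177, 172 and 176 (log2 -0.25 ± 0.06, adjusted p = 0.00832). Nck1, an adaptor to the actin cytoskeleton, fell by 0.28 on the log2 scale (adjusted p = 0.0115) and Lat, the membrane scaffold, by 0.22 (adjusted p = 0.0399, with overlapping groups). Lcp2, Grap2 and Grb2 were at log2 values of -0.01, -0.28 and 0.07 and did not pass.

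All 3 exchange factors that load RAS-family proteins with GTP were lower in mutant nTregs. Sos1, the partner of GRB2, was at 64.4, 66.4 and 60.3 CPM in WT and 45.8, 47.7 and 53.4 in the mutant (log2 -0.38 ± 0.07, adjusted p = 0.00174). Rasgrp1, the diacylglycerol-gated activator of RAS (ENSMUSG00000027347, chromosome 2, 117279993 to 117343001, minus strand), was at 389, 418 and 407 CPM against 251, 306 and 333. None of these groups overlapped. Rasgrp1 fell 1.36-fold (log2 -0.45 ± 0.11, adjusted p = 0.00921). Rasgrp2, whose product acts mainly on RAP1 and integrin adhesion (ENSMUSG00000032946, chromosome 19, 6399340 to 6415216, plus strand), was at 162, 135 and 167 CPM against 121, 108 and 105. Its change was log2 -0.47 ± 0.16 (adjusted p = 0.035). Plcg1 and Vav1 stood at -0.18 and -0.15 and did not pass.

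Neither BCL10-MALT1 gene and no NFAT gene passed in nTregs with the main settings. Malt1, the protease and scaffold of that complex, had 154, 153 and 152 CPM in WT and 118, 139 and 140 in the mutant (log2 -0.21 ± 0.09, adjusted p = 0.0988). Nfatc2, one of the calcineurin-activated transcription factors, was at 78.4, 68.2 and 67.6 CPM against 88.1, 72.6 and 84.9, groups that overlapped (log2 0.20 ± 0.09, adjusted p = 0.105). Nfatc3, at 326, 334 and 326 CPM against 302, 277 and 291, did not overlap but missed the threshold (-0.18, adjusted p = 0.0506), which it passed with RLE size factors (0.0297), the filter at 1 CPM (0.0379) and DESeq2 (0.00843).

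Members of all 4 kinds of negative regulator fell: ubiquitin ligases, diacylglycerol kinases, phosphatases and surface receptors. Among the CBL ubiquitin ligases, which tag activated receptors and kinases for removal, Cbl (ENSMUSG00000034342, chromosome 9, 44142976 to 44234049, minus strand) stood at 735, 685 and 653 CPM in WT nTregs and at 367, 435 and 478 in mutant nTregs. The lowest WT library was well above the highest mutant one. Cbl fell 1.62-fold (log2 -0.70 ± 0.10, adjusted p = 0.000443), the largest fall of any member. Cblb (ENSMUSG00000022637, chromosome 16, 52031549 to 52208047, plus strand), which sets the need for costimulation, was at 169, 153 and 159 CPM against 129, 113 and 121 (log2 -0.40 ± 0.06, adjusted p = 0.000753). Among the diacylglycerol kinases, which remove the messenger that RASGRP1 and PKC-theta read, Dgka (ENSMUSG00000025357, chromosome 10, 128720141 to 128744056, minus strand) was at 815, 762 and 823 CPM against 467, 513 and 628. Its fall was 1.49-fold (log2 -0.58 ± 0.12, adjusted p = 0.00351), and Dgkz fell by 0.30 (adjusted p = 0.0359). Among phosphatases and surface receptors, Ubash3b, a phosphatase that acts on ZAP70 family kinases, was at 78, 84.1 and 81.5 CPM against 42.3, 65.9 and 62.9, with no overlap. Ubash3b fell by 0.51 (SE 0.13, adjusted p = 0.00872). Ptpn6, the SHP-1 phosphatase, fell by 0.36 (adjusted p = 0.00483) and Cd5, a surface receptor that recruits inhibitory enzymes, by 0.38 (adjusted p = 0.00883). Cd6, Ptpn22 and Ubash3a had log2 values of -0.07, 0.22 and 0.01 and did not pass.

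Library 1 was the lowest mutant nTreg library for Cbl, Dgka, Dgkz, Cd5, Ptpn6 and Ubash3b, and also for Rasgrp1 and Malt1. Without it the log2 fold changes were -0.57 for Cbl (adjusted p = 0.000376), -0.42 for Cblb (0.000321), -0.46 for Dgka (0.0112), -0.30 for Ubash3b (0.00324), -0.26 for Ptpn6 (0.0181), -0.23 for Cd5 (0.0231) and -0.16 for Dgkz (0.168). That left 6 of the 7 negative regulators past the threshold. For all members, 16 fell and 3 rose without library 1, while over all tested genes 2065 fell and 3359 rose, in place of 2798 and 3471. Rasgrp1 was then -0.31 (adjusted p = 0.0316) and Cd3e -0.16 (adjusted p = 0.137). Of the 18 calls in nTregs, 13 held under every one of 13 alternatives. Leaving out single libraries ended the calls of Cd3e (every nTreg library but mutant 4, adjusted p 0.0522 to 0.144), Lat (mutant 2 and 4, WT 1 and 3, 0.0703 to 0.109), Rasgrp2 (the same libraries, 0.0641 to 0.102) and Dgkz (mutant 1, WT 1 and 3, 0.066 to 0.168). Nck1 lost its call (0.0503) in a fit of the nTreg libraries alone. In turn 11 members gained a call under some alternative. On leaving out 1 library these were Grap2, Nfatc1 and Txk (without mutant 1), Nfatc2 and Tec (mutant 2), Cd3d, Plcg1 and Vav1 (mutant 4), Ptpn22 (WT 1) and Lck (WT 2), with adjusted p of 0.0279 to 0.0485, and Nfatc3 gained one as given above. Nfatc1 (log2 0.18), Nfatc2 (0.25) and Ptpn22 (0.36) gained theirs as higher in the mutant, and the others as lower.

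**Figure D2:**
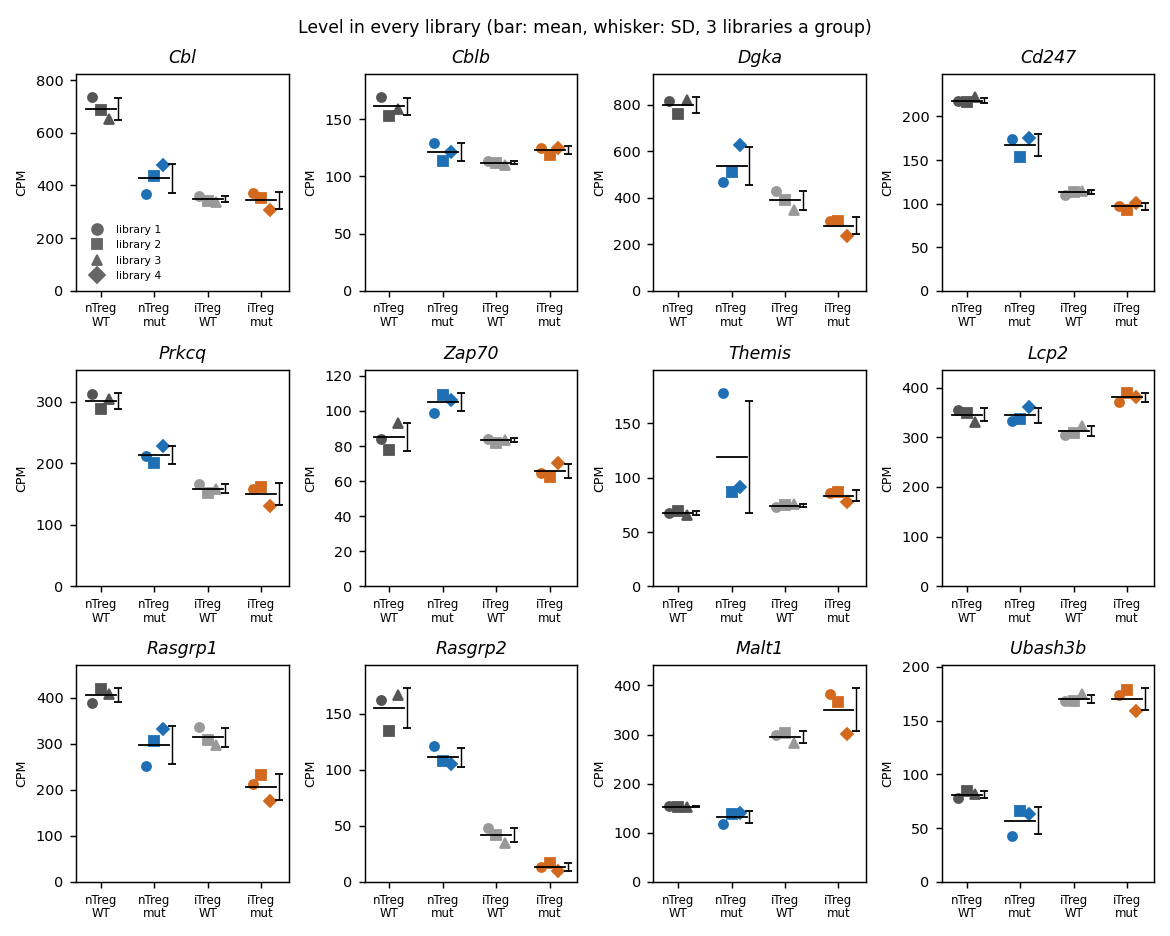
Level in CPM of 12 members in every library (points, shaped by library number), with the group mean (line) and SD (whisker), 3 libraries a group. Cbl, Cblb and Prkcq of mutant nTregs lie below WT, Dgka, Cd247 and Rasgrp1 lie below WT in both kinds of Treg, and Themis library 1 lies at 178 CPM, far above the other mutant nTreg libraries.

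In iTregs fewer members passed the test of genotype than in nTregs. Here 10 members fell and 2 rose, with 11.4% of all tested genes called lower and 14% higher. The median of the members was -0.08 on the log2 scale, beside 0.04 for all genes, and the groups did not overlap for 23 members (60.5%) and for 46.5% of all tested genes. Of the receptor chains, coreceptor and kinases 4 of 11 fell and 1 rose, and of the negative regulators 2 of 10 fell. When libraries were scaled by library size alone the split was 16 lower and 1 higher, and that of all genes turned from 2044 lower and 2517 higher to 2921 and 1606. The summed CD8 and NK cell markers were 37.8 to 56.8 CPM in WT and 58.9 to 89.1 in mutant iTregs, and 0 of the 10 markers were called.

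The largest change of any member was that of Rasgrp2. WT iTregs had 48, 42.3 and 35.1 CPM and mutant iTregs 13, 17.3 and 10. The groups lay far apart, and the fall was 3.11-fold (log2 -1.64 ± 0.17, adjusted p = 0.000244). Rasgrp1, its relative that acts on RAS, was at 337, 307 and 297 CPM against 213, 232 and 175. It fell 1.52-fold (log2 -0.60 ± 0.11, adjusted p = 0.00371), again without overlap. Sos1, Plcg1 and Vav1 were at -0.07, -0.15 and -0.12 and did not pass.

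Among adaptors, Sh2d2a fell and Lcp2 rose. Sh2d2a (ENSMUSG00000028071, chromosome 3, 87846755 to 87855722, plus strand) was at 159, 150 and 141 CPM in WT and 114, 113 and 108 in mutant iTregs, 1.34-fold lower (log2 -0.43 ± 0.06, adjusted p = 0.0011). Lcp2, which encodes the central scaffold SLP-76 (ENSMUSG00000002699, chromosome 11, 34046920 to 34092295, plus strand), was at 304, 309 and 323 CPM against 370, 389 and 381. All mutant libraries were above all WT libraries, by 1.22-fold (log2 0.28 ± 0.06, adjusted p = 0.00615). Grap2, which encodes the adaptor GADS that joins LAT to SLP-76, fell by 0.37 (SE 0.11, adjusted p = 0.0295).

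Kinases moved in both directions in iTregs. Lck (ENSMUSG00000000409, chromosome 4, 129548344 to 129573641, minus strand) was at 403, 379 and 384 CPM in WT and 318, 321 and 324 in the mutant, a 1.21-fold fall with tight libraries (log2 -0.28 ± 0.06, adjusted p = 0.00725). Zap70 was at 84.2, 82 and 83.5 CPM against 64.8, 62.1 and 70.4. This was a 1.27-fold fall (log2 -0.34 ± 0.08, adjusted p = 0.0084). Fyn fell by 0.23 (adjusted p = 0.0398). Tec, the lowest member of the pathway in WT iTregs, was at 5.9, 5.01 and 7.16 CPM against 9.83, 7.38 and 8.41 (log2 0.50 ± 0.16, adjusted p = 0.0347), groups that are separate but close.

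Only Cd247 passed among the receptor chains, at 110, 113 and 115 CPM in WT and 96.8, 92.9 and 101 in mutant iTregs (log2 -0.22 ± 0.06, adjusted p = 0.0269). Cd3d, Cd3g and Cd4 had positive values of 0.13, 0.18 and 0.13 that did not pass. Among negative regulators, Dgka was at 428, 392 and 348 CPM against 300, 301 and 237 (log2 -0.48 ± 0.12, adjusted p = 0.0145) and Cd6 fell by 0.29 (SE 0.09, adjusted p = 0.0287). Dgkz (-0.29, adjusted p = 0.0504), Cd5 (-0.23, 0.0902) and Ptpn6 (-0.21, 0.0665) missed the threshold. Cbl at 360, 342 and 338 CPM in WT and 370, 354 and 307 in the mutant overlapped fully (log2 -0.01 ± 0.10, adjusted p = 0.946). Malt1 was at 299, 303 and 282 CPM against 383, 367 and 301 (log2 0.25 ± 0.09, adjusted p = 0.0611), and the 3 NFAT genes lay between -0.06 and -0.01. The farthest of them, Nfatc3, overlapped between 252, 241 and 237 CPM in WT and 240, 247 and 213 in mutant iTregs.

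Of the 12 calls in iTregs, 6 held under every alternative: Lck, Zap70, Lcp2, Sh2d2a, Rasgrp1 and Rasgrp2. Without WT library 1, and likewise without WT library 2, 5 members fell instead of 10, and over all tested genes 997 and 1098 fell instead of 2044. The calls lost on leaving out single iTreg libraries were those of Cd247 (all but mutant 4, adjusted p 0.0652 to 0.0962), Fyn (all but mutant 2, 0.0663 to 0.135), Cd6 (mutant 1 and 2, WT 1 and 2, 0.0714 to 0.119), Tec (mutant 1 and 4, WT 1 and 2, 0.0607 to 0.143), Grap2 (mutant 4, WT 1 and 2, 0.0707 to 0.099) and Dgka (WT 1, 0.07, and WT 2, 0.0514). A call was gained under some alternative by 8 members, of which Cd3g (0.038) and Malt1 (0.0114) did so without mutant library 4, and Cd3e, Cd5, Dgkz, Lat, Ptpn6 and Vav1 under other settings. Cd3g and Malt1 gained theirs as higher in the mutant (log2 0.25 and 0.35), and the others as lower.

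The genotype effects themselves differed between the kinds of Treg for 9 members, by the test of the difference (iTreg effect minus nTreg effect). It was positive for 7 and negative for 2, where 6.12% of all tested genes were called higher and 7.18% lower. The clearest were Cblb (0.54 ± 0.09, adjusted p = 0.0048), Zap70 (-0.65 ± 0.11, 0.00483), Rasgrp2 (-1.17 ± 0.23, 0.00887) and Cbl (0.68 ± 0.14, 0.00956). Zap70 rose in nTregs and fell in iTregs. Cblb, at 113, 112 and 110 CPM in WT iTregs and 125, 119 and 125 in mutant iTregs, fell in nTregs and had a value of 0.13 in iTregs (adjusted p = 0.138). Cbl fell in nTregs and had a value of -0.01 in iTregs. Rasgrp2 fell in both, and by more in iTregs. These 4 held under all 18 alternatives.

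The other 5 were Tec (0.87 ± 0.22, adjusted p = 0.0225), Nck1 (0.41 ± 0.10, 0.0251), Malt1 (0.46 ± 0.13, 0.0374), Lcp2 (0.29 ± 0.08, 0.0409) and Prkcq (0.41 ± 0.12, 0.0434). Each lost its call when certain single libraries were left out, with adjusted p of 0.0512 to 0.109 over those fits. For Lcp2 this was any library but mutant nTreg 4 and WT nTreg 3, and for Prkcq any but mutant iTreg 4 and mutant nTreg 4. For Malt1 it was any but mutant iTreg 4 and mutant nTreg 2 and 4. For Nck1 it was mutant iTreg 1 and 2, WT iTreg 2 and 3, mutant nTreg 1 and WT nTreg 1 and 2, and for Tec mutant iTreg 1, WT iTreg 2 and WT nTreg 2. Without mutant nTreg library 1 the values were 0.28 for Nck1 (adjusted p = 0.0534), 0.31 for Malt1 (0.0764) and 0.33 for Prkcq (0.0714), while Themis at -0.31 (0.0195) and Ubash3b at 0.26 (0.044) passed. Ubash3b also passed without mutant nTreg 2 (0.0323) or 4 (0.0499), Cd3g without mutant iTreg 4 (0.0385), and Sos1 without mutant nTreg 4 (0.0205) or WT nTreg 3 (0.0465). These differences of Ubash3b, Cd3g and Sos1 were all positive. With scaling by library size alone the split of the members was 3 higher and 7 lower in place of 7 and 2, and that of all genes went from 1101 higher and 1291 lower to 518 and 2393. The other 29 members did not pass, which does not show that their effects were alike. Among them, Dgka fell in both kinds of Treg (difference 0.10 ± 0.17, adjusted p = 0.749), and Rasgrp1 differed by -0.16 ± 0.16 (adjusted p = 0.556).

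Set side by side, the calls of the genotype comparisons (which share no libraries with each other) placed 5 members (13.2%) as lower in both, Zap70 as higher in nTregs and lower in iTregs, 11 (28.9%) as lower in nTregs with no call in iTregs, and 4 (10.5%: Lck, Fyn, Grap2 and Cd6) as lower in iTregs with no call in nTregs. Themis had a call only in nTregs, Tec and Lcp2 had one only in iTregs, and 14 had none (36.8%). Of all tested genes 4.17% were lower in both, 10.7% lower in nTregs with no call in iTregs, 6.47% lower in iTregs with no call in nTregs, and 51.1% had no call.

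To set receptor chains and kinases against negative regulators, the mean log2 CPM of each class was taken in every library. Negative regulators minus the 11 receptor chains, coreceptor and kinases gave 0.334, 0.314 and 0.291 in WT nTregs and 0.046, 0.269 and 0.259 in mutant nTregs. Library 1 was again the low one, and all mutant values were below all WT values. In iTregs the differences were 0.592, 0.612 and 0.493 in WT and 0.406, 0.46 and 0.546 in the mutant, which overlapped. Group means were 0.313 ± 0.022 (SD, n = 3), 0.191 ± 0.126, 0.566 ± 0.064 and 0.471 ± 0.071, and the mutant nTreg mean was 0.264 without library 1. No test was made on this score. It was larger in each iTreg library than in any nTreg library. Of the 10 negative regulators, 9 were called lower in WT iTregs than in WT nTregs. Only Ubash3b was called higher there (log2 1.07, and 1.57 between the mutant kinds of Treg). The score without Ubash3b was not computed, so this gap does not speak for the class as a whole.

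**Figure D3:**
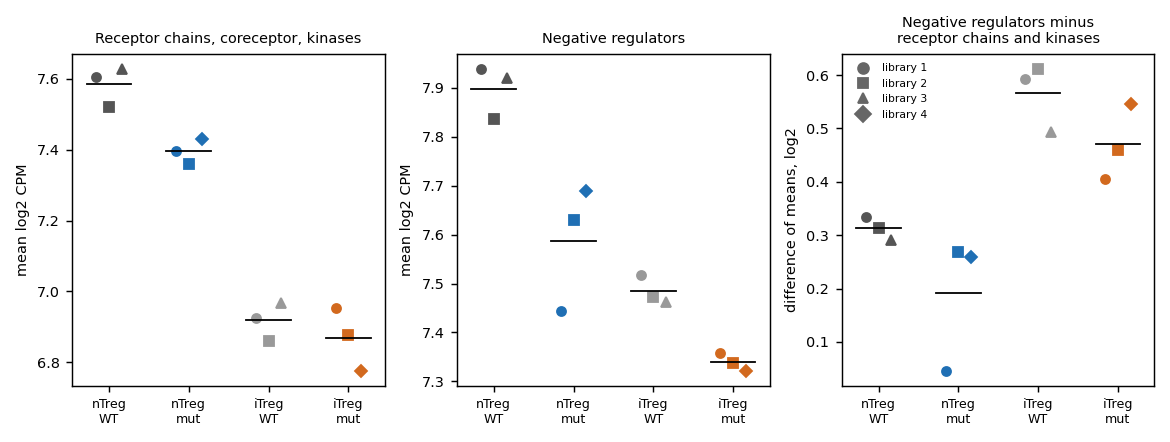
Mean log2 CPM per library of the 11 receptor chains, coreceptor and kinases (left), of the 10 negative regulators (middle), and their difference (right), with the group mean as a line and 3 libraries a group. The difference lies between 0.291 and 0.334 in WT nTregs and between 0.493 and 0.612 in WT iTregs, and mutant nTreg library 1 is lowest at 0.046.

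Between the kinds of WT Treg, most of the pathway was lower in iTregs than in nTregs. Of the 38 members 30 were lower and 3 higher in WT iTregs, with 35.7% of all tested genes called lower and 33.7% higher. The median was -0.36 on the log2 scale and -0.015 over all genes. All 4 receptor chains and Cd4, 4 of 6 kinases, 5 of 7 adaptors, all 5 enzymes and exchange factors and 9 of 10 negative regulators were lower. The groups did not overlap for 36 members (94.7%) and for 77.8% of all tested genes. Markers of B cells (9 of 9), myeloid cells (7 of 9 tested), erythroid cells (5 of 6) and gamma delta T cells (5 of 5) were lower in WT iTregs as well, and the 4 other T cell genes summed to 1910 to 2110 CPM in WT nTregs and 1220 to 1290 in WT iTregs. The part of these other cells in the members' values was not tested. This comparison uses the same WT libraries as the genotype comparisons. Only the iTregs were cultured, so kind of Treg and culture cannot be told apart.

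**Figure D4:**
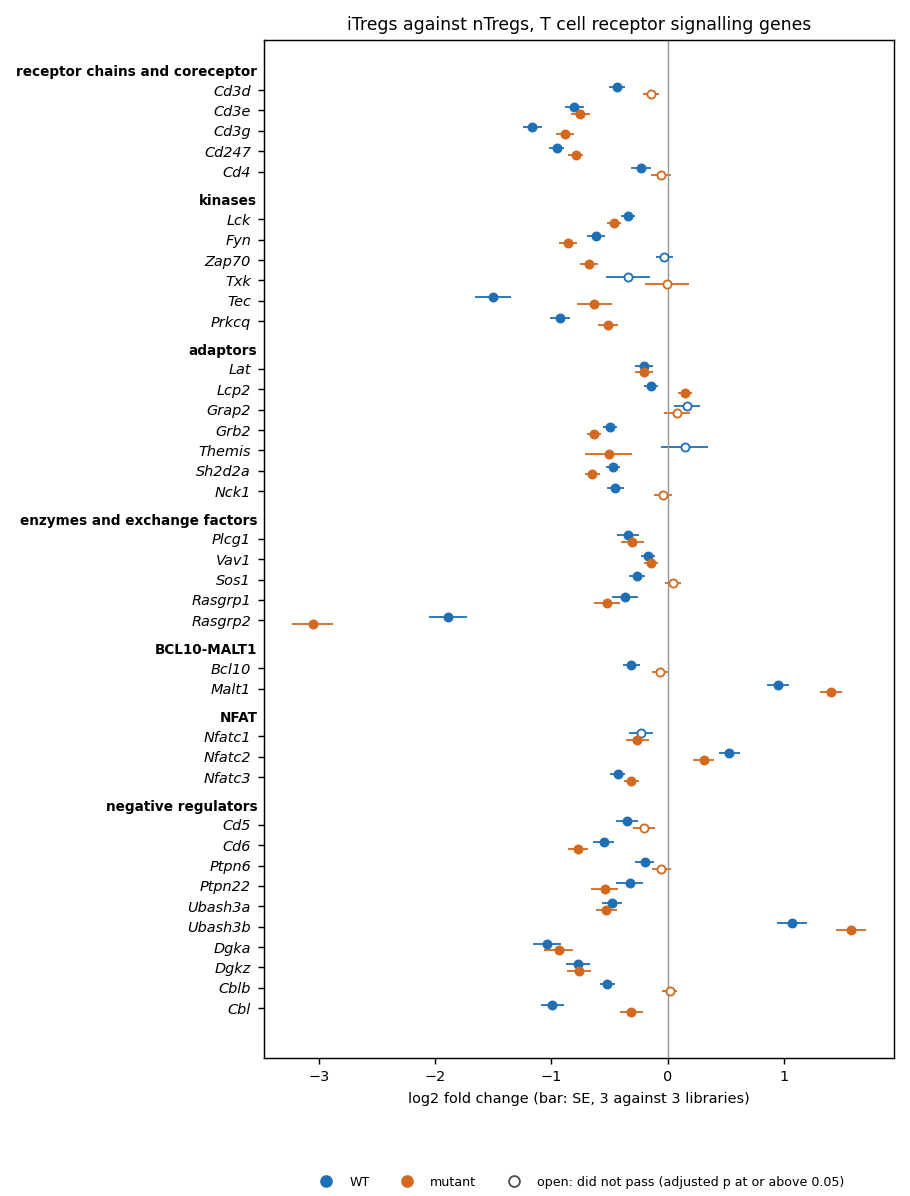
Log2 fold change of iTregs against nTregs for each member, in WT (blue) and mutant (orange), grouped by role, 3 libraries against 3. Filled points passed at an adjusted p under 0.05, and bars are the SE, with the spread estimated over all 12 libraries. Most points lie left of zero, Malt1, Nfatc2 and Ubash3b lie right of it in both, and Rasgrp2 is lowest at -1.89 and -3.05.

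Cd3g, a CD3 chain, was at 369, 336 and 355 CPM in WT nTregs and 154, 149 and 170 in WT iTregs. It was 2.24-fold lower (log2 -1.16 ± 0.08, adjusted p = 8.09e-08), and Cd247, with the values above, was 1.94-fold lower (-0.95 ± 0.07, adjusted p = 8.28e-08). Cd3d and Cd3e were lower by 0.43 and 0.80, and Cd4 by 0.23 (adjusted p = 0.0328). Cd4 was thus the nearest to zero of this class.

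Rasgrp2 was 3.7-fold lower in WT iTregs (log2 -1.89 ± 0.17, adjusted p = 6.52e-07), the largest fall in this comparison. Tec was 2.83-fold lower (log2 -1.50 ± 0.16, adjusted p = 2.82e-06) and Prkcq 1.9-fold (log2 -0.93 ± 0.09, adjusted p = 1.2e-06). Zap70 was the kinase nearest zero, with means of 85 and 83.3 CPM (log2 -0.03 ± 0.08, adjusted p = 0.742). Among adaptors the furthest was Grb2, at 122, 128 and 135 CPM in WT nTregs and 91.9, 87.1 and 92.7 in WT iTregs (log2 -0.50 ± 0.06, adjusted p = 9.57e-06).

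The negative regulators Dgka (log2 -1.04 ± 0.12, adjusted p = 7.95e-06) and Cbl (-0.99 ± 0.10, 1.9e-06) were lower, with the library values given for the genotype comparisons. Ubash3b went the other way, at 168, 168 and 175 CPM in WT iTregs, 2.09-fold above WT nTregs (log2 1.07 ± 0.13, adjusted p = 8.89e-06). Its relative Ubash3a, which has weaker phosphatase activity, was lower in iTregs (-0.48 ± 0.09, adjusted p = 0.000357). Malt1 was 1.93-fold higher (log2 0.95 ± 0.09, adjusted p = 1.64e-06), whereas its partner Bcl10 was lower by 0.31 (adjusted p = 0.00187). Nfatc2, at 78.4, 68.2 and 67.6 CPM in WT nTregs and 101, 101 and 107 in WT iTregs, was 1.44-fold higher (log2 0.53 ± 0.09, adjusted p = 0.00017), and Nfatc3 was lower by 0.43 (adjusted p = 8.3e-05). Of the 33 calls 27 held under every alternative, and those lost on leaving out single WT libraries were Cd4 (iTreg 1 and 2, nTreg 1 and 2, adjusted p 0.0703 to 0.106), Lat (iTreg 2 and 3, nTreg 1 and 3, 0.0757 to 0.1), Lcp2 (all but nTreg 3, 0.0517 to 0.142), Ptpn22 (iTreg 2 and 3, nTreg 1, 0.0669 to 0.154), Ptpn6 (all but nTreg 2, 0.0631 to 0.156) and Vav1 (iTreg 2 and 3, nTreg 1, 0.0583 to 0.0844).

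In mutant cells, 24 members were lower and 4 higher in iTregs than in nTregs, with 35% of all tested genes called lower and 33.2% higher. The median of the members was -0.31. Without mutant nTreg library 1, 29 were lower and 3 higher, and over all tested genes 7195 were lower and 5797 higher, in place of 6293 and 5968. Malt1, Nfatc2 and Ubash3b were higher here too, and 21 members were lower in both genotypes (55.3%, and of 30 in WT and 24 in the mutant), as were 28.2% of all tested genes, in comparisons that share no libraries with each other. The groups did not overlap for 25 members (65.8%) and for 68.9% of all tested genes. Rasgrp2 reached its lowest level of all groups in mutant iTregs, 8.29-fold below mutant nTregs (log2 -3.05 ± 0.18, adjusted p = 2.23e-08). Fyn, at 361, 298 and 336 CPM in mutant nTregs and 183, 193 and 172 in mutant iTregs, was 1.81-fold lower (log2 -0.86 ± 0.08, adjusted p = 8.18e-07). Cd3g, at 319, 329 and 337 CPM against 194, 181 and 161, was 1.84-fold lower (log2 -0.88 ± 0.08, adjusted p = 8.42e-07), and Cd247 1.73-fold (log2 -0.79 ± 0.07, adjusted p = 4.16e-07). Ubash3b was 2.98-fold higher (174, 178 and 159 CPM in mutant iTregs, log2 1.57 ± 0.13, adjusted p = 3.92e-07) and Malt1 2.65-fold (log2 1.40 ± 0.09, adjusted p = 7.09e-08).

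Cblb and Sos1, lower in iTregs of the WT, did not pass in the mutant (log2 0.02 and 0.04, adjusted p = 0.827 and 0.613). Lcp2 was called 0.14 lower in WT iTregs and 0.14 higher in mutant iTregs (adjusted p = 0.0449 and 0.0453), and both calls were lost under several alternatives. In mutant iTregs the Lcp2 call ended without iTreg 1, 2 or 4 or nTreg 1 or 2 (adjusted p 0.052 to 0.508), and the value was -0.04 with library size alone. Of the 28 calls, 20 held under every alternative. Leaving out single mutant libraries ended those of Cbl (iTreg 4 and nTreg 4, adjusted p 0.057 and 0.0665), Lat (iTreg 1 and 2, 0.063 and 0.0972), Plcg1 (iTreg 4 and nTreg 4, 0.0612 and 0.0724), Themis (each iTreg library, 0.071 to 0.115), Nfatc1 (all but nTreg 1, 0.0537 to 0.169) and Vav1 (each iTreg library and nTreg 4, 0.0551 to 0.179). Nfatc2 lost its call with library size alone (0.144). Cd3d gained one without nTreg 1 (0.0174) or 2 (0.0433), Cd4, Cd5, Nck1 and Ptpn6 without nTreg 1 (0.000178 to 0.0318) and Grap2 without iTreg 4 (0.0473). Of these, Grap2 gained its call as higher in iTregs and the others as lower. With library size alone 31 members were lower and 2 higher, and all genes went from 6293 lower and 5968 higher to 7832 and 4397. CD8 and NK cell markers, high in mutant nTregs, were lower in mutant iTregs for 8 of 10, and their part in the members' values was not tested.

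Per kilobase of exon, Dgka was the highest member in WT nTregs at 285 CPM per kb, followed by Lck at 168, Cd5 at 140, Cd3d at 129, Cd4 at 122 and Cd3g at 108. Dgka and Lck were apart by far more than their SD (11.8 and 8.74), while Cd5, Cd3d and Cd4 lay closer together. In WT iTregs Dgka (139 ± 14.4) and Lck (133 ± 4.23) no longer differed beyond their spread, and Cd5 (110), Cd4 (104) and Cd3d (95.3) followed. Tec was lowest in both, at 4.56 and 1.61 CPM per kb, with Txk next in WT nTregs (6.16) and Rasgrp2 next in WT iTregs (3.37). The divisor is the length of all annotated exons of a gene, 10955 bases for Txk and 12384 for Rasgrp2, and the order depends on it. In CPM alone, Txk in WT nTregs (67.5) was above Nck1 (42.5). Likewise Rasgrp2 in WT iTregs (41.8) was above Bcl10 (36.6) and Nck1 (31.1). A negative regulator and a kinase thus headed the list per kilobase in each kind of WT Treg.

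Another 87 genes of the pathway, from a list outside the 38 members that also holds Trac, Trbc2, Cd2 and Cd28, were tested. In nTregs 7 rose (8.05%, where 19.3% of all tested genes rose) and 26 fell (29.9%, against 15.6%) in the mutant. In iTregs 16 rose (18.4%, against 14%) and 19 fell (21.8%, against 11.4%). The members of this list with the smallest adjusted p in nTregs were Akt1, a kinase downstream of PI3K (mean 66.1 to 99.7 CPM, log2 0.59 ± 0.10, adjusted p = 0.000835), the calcium channel gene Itpr1 (log2 0.45) and the phosphatase gene Ptpn11 (0.33), all higher. Lower ones were the RAS inactivator Rasa2 (-0.41), the lipid phosphatase gene Inpp5d (-0.39) and the ubiquitin ligase gene Itch (-0.34). In iTregs Sla, an adaptor that helps to remove receptor chains (85.9 to 159 CPM, log2 0.89 ± 0.10, adjusted p = 0.000361), Nedd4, a ubiquitin ligase (1.39), and Dusp6, an ERK phosphatase (0.56), rose. The RAS-family inactivator Rasa3 (-0.97) and Pik3cd, the PI3K subunit p110 delta (-0.59), fell.

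Of 18 genes known to follow receptor engagement (3 of them, Il2ra, Ctla4 and Ikzf2, also served as Treg markers), 3 rose (16.7%) and 1 fell (5.56%) in mutant nTregs, where 19.3% and 15.6% of all tested genes did. In mutant iTregs 2 rose and 2 fell (11.1% each), beside 14% and 11.4% of all tested genes, so no share was above that of all genes in the genotype comparisons. Between the kinds of Treg, 11 of the 18 were higher (61.1%) and 5 lower (27.8%) in WT iTregs, beside 33.7% and 35.7% of all tested genes. In mutant iTregs 10 were higher (55.6%) and 6 lower (33.3%) than in mutant nTregs, beside 33.2% and 35%. In nTregs Egr1 fell (55.3 to 38.7 CPM, log2 -0.51 ± 0.11, adjusted p = 0.00434), while Batf (0.63, adjusted p = 0.0046), Nr4a2 (0.71, 0.00847) and Tnfrsf4 (0.39, 0.0187) rose. In iTregs Il2ra (0.31, adjusted p = 0.0098) and Icos (0.41, 0.0301) rose, and Nfkbid (-0.49, 0.0144) and Nr4a1 (-0.46, 0.0397) fell.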

How the data were processed

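Poly(A) RNA of 12 libraries was sequenced with a stranded kit, per the labels' protocols. Reads were aligned with STAR 2.5.2b to mm10, per the submitters' processing notes. The deposited values are raw read counts per gene, made by the authors with featureCounts 1.5.2 on Ensembl GRCm38 release 87 with reverse-strand counting of exons, per the file headers. Multi-mapping reads were counted at every alignment, so genes with near-identical copies are uncertain. Symbols were given for 49326 of the 49671 genes, and 345 had none.

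From the counts, 17977 genes passed edgeR's filterByExpr (edgeR 4.0.16, R 4.3.3). Library sizes were scaled by TMM, and 4 group means were fitted over all 12 libraries (8 residual degrees of freedom). Each contrast was tested with the quasi-likelihood F test, with Benjamini-Hochberg adjustment over all tested genes and a threshold of 0.05. The SE is the log2 fold change divided by the square root of F, so it rests on the spread over all 12 libraries. CPM values use TMM library sizes, and class means use log2 CPM with a prior count of 2. The code was tested on simulated data.

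The members and lists were chosen with earlier results of these data known. All members may be named. Library values are given for the 4 calls with the smallest adjusted p in each direction, the largest change in each role class and the 3 smallest p of the difference. Of the other lists, up to 3 genes per direction and genotype comparison with at least 5 CPM were named by smallest adjusted p. A gene that this rule would name is not reported here. Alternatives were RLE size factors, library size alone, no filter, DESeq2 1.42.0, at least 1 CPM in 3 libraries, a replicate block, a fit of only the groups compared, and leaving out each library. No sample was left out.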

Additional observations from a re-analysis of the deposited data

Results flagged for a closer look

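For 9 of the T cell receptor signalling genes the effect of the Gclc mutation in iTregs differed from that in nTregs by the test of the difference itself (edgeR quasi-likelihood test, adjusted p under 0.05 over all tested genes). The iTreg effect minus the nTreg effect, on the log2 scale, was 0.537 for the ubiquitin ligase gene Cblb, 0.68 for Cbl, -0.645 for the kinase gene Zap70 and -1.165 for the exchange factor gene Rasgrp2. It was 0.87 for the kinase gene Tec, 0.413 for Prkcq, 0.409 for the adaptor gene Nck1, 0.29 for Lcp2 and 0.456 for the protease gene Malt1. The calls of the last 5 were lost when certain single libraries were left out.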

How the results depend on the processing

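Over all 5 comparisons, 2393 of the values recomputed for single members under an alternative kept their side of the threshold without a called value changing sign, 176 lost the call, 89 gained one and 2 changed sign with a call. Of the 2393, 122 were without a call on either side and had another sign than the main value, or a value of 0 in either. The calls that held under every alternative numbered 13 of 18 in nTregs, 6 of 12 in iTregs, 4 of 9 for the difference, 27 of 33 between the WT kinds of Treg and 20 of 28 between the mutant kinds. Library size alone moved the median of all genes between mutant iTregs and nTregs from -0.016 to -0.205. Under it 1 member was higher and 16 lower in mutant iTregs (main values 2 and 10), the difference had 3 higher and 7 lower (7 and 2), 2 members were higher between mutant iTregs and nTregs (4), and 2 values reversed there, Lcp2 to -0.043 and Cblb to -0.17 (adjusted p = 0.0158, edgeR). All genes then split into 1606 higher in mutant iTregs and into 518 higher and 2393 lower for the difference, and into 4161 higher and 2201 lower in mutant nTregs (3471 and 2798). A fit of the iTreg libraries alone called 16 members and 2805 of all genes lower. The filter of at least 1 CPM in 3 libraries left 4 members and 893 of all genes higher for the difference. Same-numbered libraries correlated at -0.038 to 0.089 over the 2000 most variable genes. Between nTregs and iTregs of the same genotype, same-numbered libraries were at 0.016 to 0.089 and differently numbered ones at -0.059 to 0.025. Values this weak cannot settle whether replicate numbers pair the samples. With the replicate block 6 members were lower in mutant iTregs, 4 were higher for the difference and 12 lower in nTregs, and all genes counted 1677 higher and 1359 lower in iTregs and 650 higher and 821 lower for the difference. Leaving out each library gave 1 to 3 members higher and 5 to 8 lower in iTregs, and 2 to 9 higher for the difference. Over all genes it gave 773 to 2297 higher and 997 to 1918 lower in iTregs, and 494 to 1310 higher and 610 to 2146 lower for the difference. The count of 773 was without WT iTreg library 1, and 2146 was without mutant nTreg library 1. RLE size factors and DESeq2 called 21 and 22 members lower in nTregs, in place of 16, and 2923 and 3056 of all genes, in place of 2798. The shallowest library held 28707579 counts, and Tec, with 5.01 CPM in its lowest library, has the widest counting error of the members.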
